A study of Mus musculus with 12 samples.

Results

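Aminoacyl-tRNA synthetases are the enzymes that join each amino acid to its transfer RNA, and 36 of their genes were examined in the small intestine of mice on 2 diets, of which the control is a high-fat one. Of these, 20 encode enzymes of the cytosol and 16, whose names end in 2, encode enzymes of mitochondria. The genes were found by symbol on the array, and 34 of the 36 had a probe set (a group of probes read as 1 value) naming that gene alone, 18 cytosolic and 16 mitochondrial. Aars shares its probe set with another gene and Dars was not named on a probe set used here, so neither was analysed here. The 34 genes stood among 19937 measured genes, and all 34 were bright enough to be among the 11962 tested.

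RNA was taken from the small intestine of 12 male wild-type FVB mice, labelled as 8 weeks of age, and read on Affymetrix whole-transcript arrays. Over 8 weeks, 6 mice ate feed poor in polyunsaturated relative to saturated fat (low P/S) and 6 ate a control high-fat diet. The submitters describe the 6 arrays per diet as biological replicates. The segment of intestine, the hour of dissection and the time since the last meal are not stated in the labels. Values are the deposited intensities, in arbitrary units on a linear scale. Each difference is the log2 level on low P/S minus that on control, with the standard error (SE) from limma, and a gene passed at a Benjamini-Hochberg adjusted p under 0.05 over all genes tested.

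Cells make proteins in the cytosol and, for a few subunits of the respiratory chain, on separate ribosomes inside mitochondria, and each compartment needs its own charged transfer RNAs. Most amino acids therefore have a cytosolic and a mitochondrial enzyme from separate nuclear genes, while Gars and Kars each give both forms. Several cytosolic enzymes are held in the multisynthetase complex by the scaffold proteins Aimp1, Aimp2 and Eef1e1. In mammalian cells short of amino acids or under stress, the transcription factor ATF4 raises many cytosolic synthetase genes together with genes of amino acid synthesis.

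Transcripts of the cytosolic enzymes were higher on the low P/S diet. Of 18 cytosolic genes, 14 rose (77.8%), 0 fell and 4 did not pass, with a median difference of 0.27. Of 16 mitochondrial genes, 5 rose (31.2%), 0 fell and 11 did not pass, with a median difference of 0.09. Among all genes tested 17.8% rose and 7.87% fell, with a median difference of 0.02. The share of the cytosolic genes lay well above this background, and that of the mitochondrial genes was nearer to it. No synthetase was lower at an unadjusted p under 0.05 either (0 of 34). With quantile normalization all genes tested gave 1853 higher and 1596 lower in place of 2132 and 942, while the synthetases gave 14 cytosolic and 4 mitochondrial genes higher and 0 lower.

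Nars, the asparagine enzyme of the cytosol, had the largest difference of the 34. Its intensity was 4117 at lowest, 4781 at the median and 5353 at highest on the low P/S diet, against 2213, 3074 and 3789 on the control diet (probe set 10459405). Every low P/S array lay above every control array, and the difference was 0.66 ± 0.11 (SE, n = 6 each), or 1.58-fold, with an adjusted p of 0.000691 in limma.

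**Figure D1:**
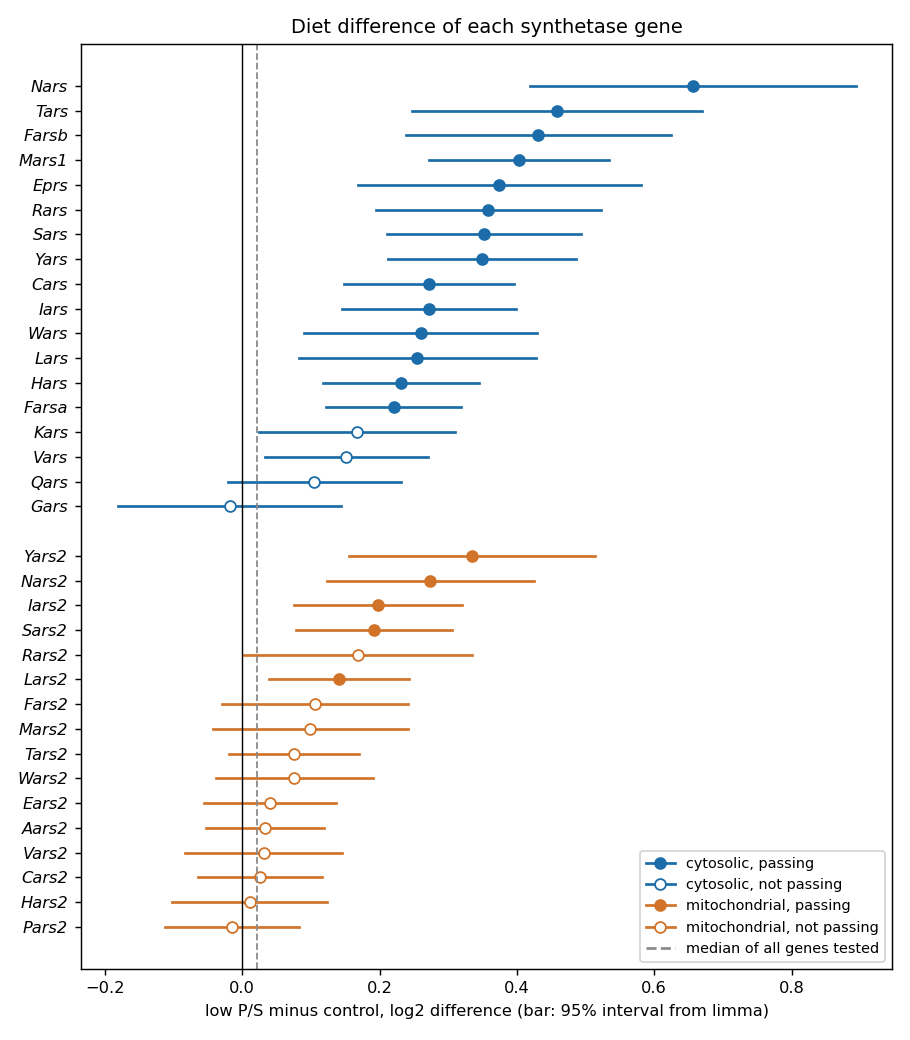
Difference between the diets (low P/S minus control, log2 scale) for each of the 34 measured synthetase genes, with 95% intervals from limma and 6 arrays per diet. Filled points passed at the adjusted threshold (14 of 18 cytosolic and 5 of 16 mitochondrial genes), and the dashed line is the median of all genes tested, at 0.02.

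Among the cytosolic enzymes of the multisynthetase complex, 5 of the 7 measured rose. Mars1, which charges methionine transfer RNA, including the one that starts each protein, lay at 293 to 349 on the low P/S diet (median 330) and at 223 to 270 on the control diet (median 244), without overlap (0.40 ± 0.06, adjusted p = 0.000336). Eprs, a single protein that charges both glutamate and proline transfer RNAs, lay at 569 to 788 (median 661) on low P/S and at 401 to 603 (median 527) on control (0.37 ± 0.10, adjusted p = 0.0106). For Eprs 5 of the 6 low P/S arrays were above all control arrays.

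Rars, the arginine enzyme, separated the diets fully, with 1463 to 1923 on low P/S (median 1638) and 1115 to 1442 on control (median 1296), a difference of 0.36 ± 0.08 (adjusted p = 0.00334). Iars, for isoleucine, had 431 to 510 on low P/S (median 473) and 342 to 436 on control (median 397), 0.27 ± 0.06 (adjusted p = 0.00382), and 5 low P/S arrays exceeded all controls. Lars, for leucine, had 457 to 580 on low P/S (median 487) and 350 to 492 on control (median 417), 0.25 ± 0.08 (adjusted p = 0.0306). Only 2 low P/S arrays lay above all control arrays for Lars, and its call ended when any 1 of 6 arrays was left out (low P/S arrays 4 and 5, control arrays 3 to 6; highest adjusted p = 0.0728).

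The lysine enzyme Kars and the glutamine enzyme Qars did not pass. Kars had 336 to 376 on low P/S and 256 to 346 on control, a difference of 0.17 ± 0.07 (adjusted p = 0.0778, 95% interval 0.03 to 0.31). It passed without control arrays 1 and 2 (adjusted p = 0.0336), but these were its highest controls, so their removal raises the difference by construction. Qars had 1134 to 1394 on low P/S and 1072 to 1239 on control, a difference of 0.11 ± 0.06 (adjusted p = 0.206).

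The 3 scaffold genes of the complex rose as well, and each separated the diets without overlap. Aimp2 had 278 to 318 on low P/S (median 295) and 222 to 256 on control (median 239), 0.31 ± 0.05 (adjusted p = 0.000489). Eef1e1 differed by 0.43 ± 0.10 (adjusted p = 0.00553) and Aimp1 by 0.23 ± 0.06 (adjusted p = 0.0131). Thus 2 of the 7 complex enzymes (Mars1 and Rars) and all 3 scaffolds had arrays that did not overlap between the diets, where 6.86% of all genes tested did so in the higher direction and 3.9% in the lower. Over all synthetases this held for 10 of 18 cytosolic and 2 of 16 mitochondrial genes (Yars2 and Lars2), each time with low P/S higher.

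Of the 11 cytosolic enzymes outside the complex, 9 rose. Tars, for threonine, had 461 to 638 on low P/S (median 556) and 301 to 457 on control (median 393), 0.46 ± 0.10 (adjusted p = 0.0036). The phenylalanine enzyme is built of 2 kinds of subunit, from Farsa and Farsb, and both rose. Farsb had 697 to 927 on low P/S (median 818) and 476 to 692 on control (median 611), 0.43 ± 0.09 (adjusted p = 0.00301). Farsa had 202 to 234 on low P/S (median 215) and 180 to 193 on control (median 188), 0.22 ± 0.05 (adjusted p = 0.00287). In all 3 genes the diets did not overlap.

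Sars, for serine, lay at 777 to 971 on low P/S (median 834) and 599 to 722 on control (median 670), 0.35 ± 0.07 (adjusted p = 0.00139). Yars, for tyrosine, lay at 294 to 343 on low P/S (median 315) and 223 to 278 on control (median 245), 0.35 ± 0.06 (adjusted p = 0.00122). Both genes had all low P/S arrays above all control arrays. The same held for Cars, for cysteine, with 276 to 348 on low P/S and 229 to 269 on control (0.27 ± 0.06, adjusted p = 0.0033). It also held for Hars, for histidine, with 279 to 348 on low P/S and 253 to 276 on control (0.23 ± 0.05, adjusted p = 0.00546).

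Wars, the tryptophan enzyme, is also known as an interferon-induced gene. It had 394 to 490 on low P/S (median 436) and 289 to 412 on control (median 379), 0.26 ± 0.08 (adjusted p = 0.0251), with 5 low P/S arrays above all controls. Its call ended without low P/S array 2 (adjusted p = 0.0539) or 4 (adjusted p = 0.0594). Of 9 tested interferon response genes 0 rose and 0 fell in limma, with 3 higher and 2 lower at an unadjusted p under 0.05, and the other settings called 0 or 1 higher and 0 to 2 lower.

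The valine enzyme gene Vars and the glycine enzyme gene Gars did not pass. Vars had 166 to 175 on low P/S and 137 to 171 on control, 0.15 ± 0.06 (adjusted p = 0.0559), and passed without control array 2 (adjusted p = 0.0201), without control arrays 1 and 2 (adjusted p = 0.028) and with the filter at the 60th percentile (adjusted p = 0.0495). Control array 2 was the highest control for Vars, so leaving it out raises the difference by construction. Gars had 811 to 918 on low P/S (median 869) and 739 to 1055 on control (median 874). Its difference was -0.02 ± 0.08 (adjusted p = 0.881), with a 95% interval of -0.18 to 0.14. Gars was not tested against the 14 genes that rose, which were picked out by their differences. The sign of the Gars difference turned to positive in 4 of the other settings.

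**Figure D2:**
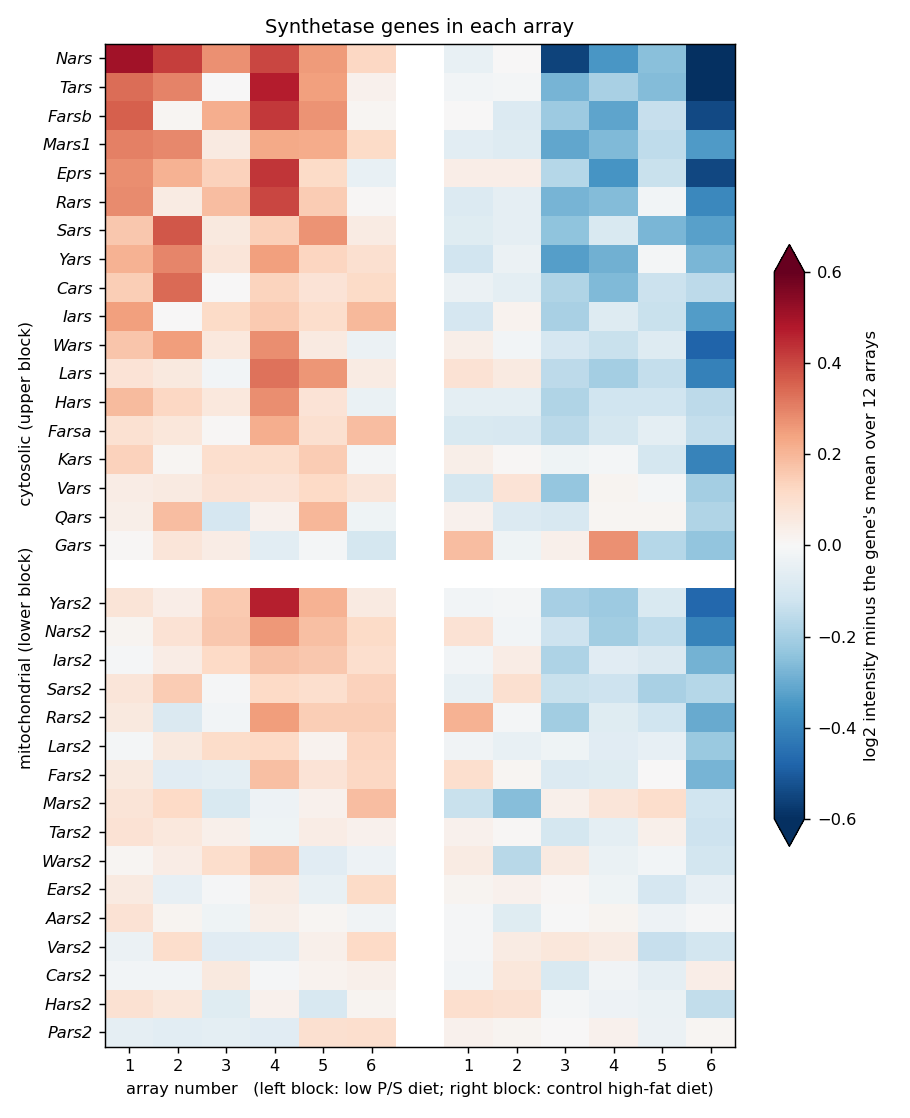
Log2 intensity of each synthetase gene in each of the 12 arrays, minus that gene's mean over the arrays (red above, blue below; low P/S arrays in the left block, control arrays in the right). Low P/S arrays 1 and 4 and control array 6 stand out among the cytosolic genes, and the lower rows of the mitochondrial block show little contrast between the diets.

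Promoters are shown for the 4 measured synthetase genes whose sequence holds the core of the C/EBP-ATF response element, the kind of DNA site that ATF4 binds. The sequences are from RefSeq (GRCm38.p6), run from 250 bases before to 50 bases after the annotated start, and are written 5′ to 3′ on the strand of the gene. Capitals mark the match to TGATGNAA, where N is any base, searched on both strands. The Iars promoter is at chr13:49681880-49682179 (plus strand) with the match at bases 258 to 265 of the 300, read on the opposite strand. That of Tars is at chr15:11399609-11399908 (minus strand) with the match at bases 236 to 243, also on the opposite strand. That of Yars is at chr4:129189653-129189952 (plus strand) with the match at bases 254 to 261, on the gene's own strand. That of Gars is at chr6:55037751-55038050 (plus strand) with the match at bases 221 to 228, on the opposite strand.
Iars: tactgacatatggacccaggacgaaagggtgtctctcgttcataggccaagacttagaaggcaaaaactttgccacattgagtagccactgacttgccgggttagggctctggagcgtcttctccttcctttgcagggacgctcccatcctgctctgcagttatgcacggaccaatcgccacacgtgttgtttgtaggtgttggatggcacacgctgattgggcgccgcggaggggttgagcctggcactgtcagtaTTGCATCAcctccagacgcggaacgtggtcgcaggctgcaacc
Tars: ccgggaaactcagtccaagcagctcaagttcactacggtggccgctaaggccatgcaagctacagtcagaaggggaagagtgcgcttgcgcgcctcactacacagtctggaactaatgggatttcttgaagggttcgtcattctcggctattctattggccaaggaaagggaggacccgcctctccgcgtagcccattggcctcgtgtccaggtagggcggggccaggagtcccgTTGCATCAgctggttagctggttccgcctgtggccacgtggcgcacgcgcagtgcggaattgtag
Yars: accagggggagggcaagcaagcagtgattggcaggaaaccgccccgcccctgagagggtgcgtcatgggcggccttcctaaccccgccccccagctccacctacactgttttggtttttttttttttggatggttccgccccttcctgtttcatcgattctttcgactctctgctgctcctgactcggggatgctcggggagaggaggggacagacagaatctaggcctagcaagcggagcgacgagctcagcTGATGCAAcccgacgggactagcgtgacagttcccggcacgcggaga
Gars: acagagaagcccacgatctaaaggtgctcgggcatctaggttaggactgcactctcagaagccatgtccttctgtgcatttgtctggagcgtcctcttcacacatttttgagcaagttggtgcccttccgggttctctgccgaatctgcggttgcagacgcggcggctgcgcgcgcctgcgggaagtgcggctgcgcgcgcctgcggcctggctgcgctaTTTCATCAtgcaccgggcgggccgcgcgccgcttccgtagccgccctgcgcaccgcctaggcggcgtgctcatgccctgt

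Read on its own strand, the match was TGATGCAA in Iars, Tars and Yars, which rose, and TGATGAAA in Gars, which did not pass. Farsb, whose promoter was also searched, held no such match and rose too. A promoter sequence was at hand for 11 of the 18 measured cytosolic genes, of which 4 held a match (36.4%), and for 14 of the 16 mitochondrial genes, of which 0 did. Of the tested genes with a promoter sequence, 2.75% of 9542 held one. The E-box CACGTG, a site of Myc and related factors, stood in 3 of 11 cytosolic genes (Farsb, Iars and Tars), in 1 of 14 mitochondrial genes (Ears2) and in 11.7% of the tested genes. A match describes these letters, and binding was not measured. Whether a match, or its letters, went with the diet difference was not tested.

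Among the mitochondrial enzymes, Yars2, for tyrosine, differed most. It had 156 to 209 on low P/S (median 164) and 109 to 150 on control (median 137), without overlap (0.33 ± 0.08, adjusted p = 0.00875). Nars2, for asparagine, had 203 to 241 on low P/S (median 221) and 152 to 213 on control (median 182), 0.27 ± 0.07 (adjusted p = 0.0102), with 5 low P/S arrays above all controls.

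Iars2, for isoleucine, had 248 to 282 on low P/S and 205 to 257 on control, 0.20 ± 0.06 (adjusted p = 0.0196). Sars2, for serine, had 144 to 161 on low P/S and 127 to 155 on control, 0.19 ± 0.05 (adjusted p = 0.0159). Lars2, for leucine, had 180 to 199 on low P/S and 156 to 179 on control, and although these did not overlap the difference was 0.14 ± 0.05 (adjusted p = 0.0402). The Lars2 call ended with array weights (adjusted p = 0.0636) and with quantile normalization (adjusted p = 0.0974), and without any 1 of 7 arrays (low P/S arrays 2, 3, 4 and 6, control arrays 4, 5 and 6; highest adjusted p = 0.0893).

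The other 11 mitochondrial genes did not pass. The arginine enzyme gene Rars2 came closest in size, at 0.17 ± 0.08 (adjusted p = 0.126), with control arrays 1, 2 and 4, at 492, 423 and 405, inside the low P/S range of 401 to 507. It passed without control array 1 (adjusted p = 0.0242) and without control arrays 1 and 2 (adjusted p = 0.0125). Control arrays 1 and 2 were its highest controls, so their removal raises the difference by construction. Fars2, for phenylalanine, had a difference of 0.11 ± 0.06 (adjusted p = 0.239) and Mars2, for methionine, 0.10 ± 0.07 (adjusted p = 0.295). Tars2, Wars2, Ears2, Aars2, Vars2, Cars2, Hars2 and Pars2 had differences between -0.02 and 0.08, with the lowest adjusted p at 0.225 for Tars2. Some of these were dim. Pars2, at 83.1 to 93.3 on low P/S and 84.9 to 88.5 on control, lay near 85.6, the mean intensity under which genes were not tested. Aars2 had 99.2 to 107 on low P/S and 95.9 to 102 on control, and Ears2 110 to 123 and 106 to 116. Whether signals so dim can show a difference was not tested. The 95% interval of Tars2 reached from -0.02 to 0.17 and that of Hars2 from -0.10 to 0.12, both below the cytosolic median of 0.27.

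Set amino acid by amino acid, the cytosolic difference was the larger in all 16 pairings with the processing used here. Eprs entered with both Ears2 and Pars2, and Farsa and Farsb both with Fars2, so the pairings are not independent. In 10 pairings only the cytosolic enzyme passed, in 5 both did (Nars, Sars, Lars, Iars and Yars with their partners), and in 1, for valine, neither did. Tars and Tars2 lay far apart, at 0.46 ± 0.10 and 0.08 ± 0.04, as did Eprs and Pars2, at 0.37 ± 0.10 and -0.02 ± 0.05. The signal of Pars2 was close to the lowest mean intensity tested. Yars and Yars2 lay close, at 0.35 ± 0.06 and 0.33 ± 0.08. In the alternatives other than single arrays left out, Yars ran from 0.2834 to 0.3997 and Yars2 from 0.3 to 0.4119. The order of Yars and Yars2 thus did not hold in every setting. Hars and Hars2, which are neighbours in the genome, differed by 0.23 ± 0.05 and 0.01 ± 0.05. The gap within a pairing was not tested.

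**Figure D3:**
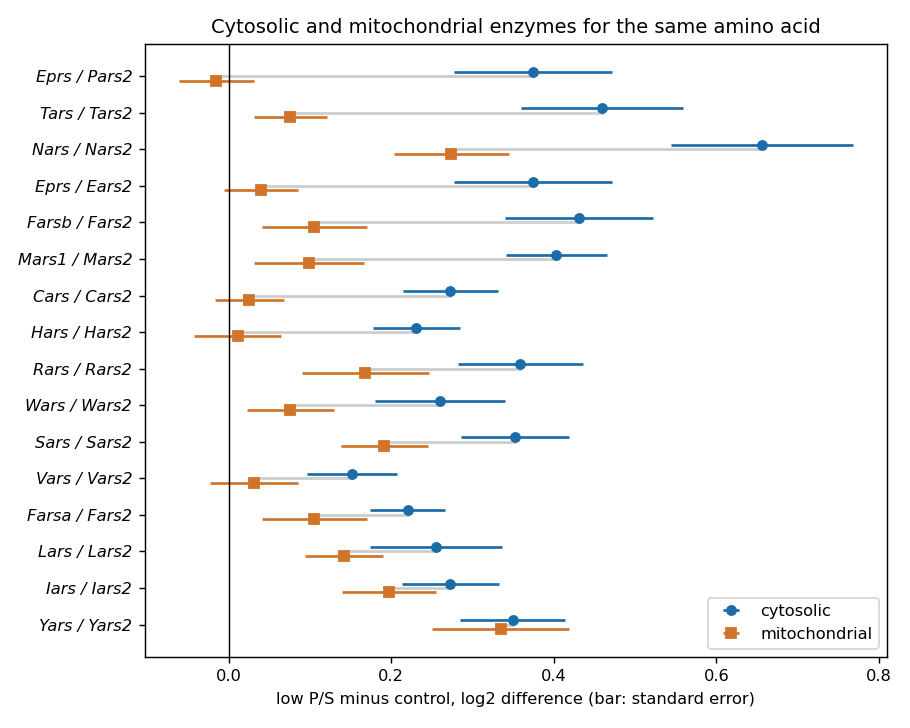
Diet difference (low P/S minus control, log2 scale, bars are the standard error, n = 6 each) of the cytosolic (circles) and mitochondrial (squares) enzyme for the same amino acid, ordered by the gap between them. The gap runs from 0.39 for Eprs and Pars2 to 0.01 for Yars and Yars2, and the cytosolic point lies to the right in all 16 pairings.

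The probe sets of the mitochondrial genes gave weaker signals, with means of 87.0 to 426, than those of the cytosolic genes, with means of 161 to 3780. Signals of different probe sets do not rank the amounts of their transcripts. The part of signal strength in the smaller mitochondrial differences was not tested. Of 8718 tested genes within the mitochondrial signal range 15.0% rose and 5.78% fell, and the diets did not overlap in 5.7% with low P/S higher and 2.44% with low P/S lower. Of 7359 within the cytosolic range 24.2% rose and 10.1% fell, and the diets did not overlap in 9.68% with low P/S higher and 5.14% with low P/S lower. Within the mitochondrial range lay 8 cytosolic genes, of which 6 rose (75.0%, median 0.25). Of the 7 mitochondrial genes at or above the dimmest cytosolic gene, 3 rose (42.9%, median 0.14).

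The arrays differed within each diet. Averaged over the 18 cytosolic genes, each taken relative to its own mean, the level was between 0.04 and 0.24 (log2) in the low P/S arrays and between -0.36 and -0.02 in the control arrays, without overlap. Low P/S arrays 6 and 3 were the lowest of their diet, at 0.04 and 0.08. Control arrays 1 and 2 were the highest of theirs, both at -0.02, and control array 6 was the lowest, at -0.36. Averaged over the 16 mitochondrial genes the level was 0.02 to 0.10 in low P/S and -0.17 to 0.02 in control arrays, and control array 1 reached the low P/S range. Without control array 6, 13 cytosolic and 4 mitochondrial genes rose, with 1610 over all genes. Without control arrays 1 and 2, 16 and 6 rose, with 2718 over all genes, and since these arrays are the highest controls for the synthetases their removal raises the differences by construction.

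**Figure D4:**
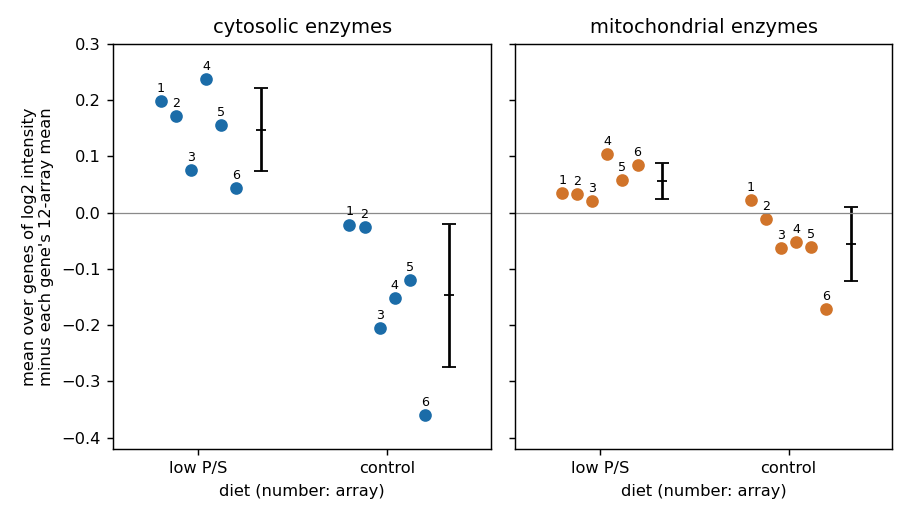
Mean over the cytosolic (left) and mitochondrial (right) genes of log2 intensity relative to each gene's mean over 12 arrays, 1 numbered point per array, with the mean and SD of each diet (n = 6) beside the points. The cytosolic means are above 0 in all 6 low P/S arrays and below 0 in all 6 control arrays, and the mitochondrial means lie closer together.

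Other genes of translation were read against the same background, 17.8% higher and 7.87% lower over all genes tested. Of 23 tested genes of transfer RNA maturation and export, 13 rose (56.5%) and 0 fell, with a median of 0.14. They included Xpot, which carries transfer RNA out of the nucleus (0.35 ± 0.07, adjusted p = 0.00238), and Dus2, a dihydrouridine synthase (0.41 ± 0.07, adjusted p = 0.000522). The lists overlap: Xpot is counted among the amino acid response genes too, and another gene of this list among the mitochondrial translation factors. Of 7 genes of cytosolic elongation 3 rose, 1 fell and 3 did not pass. Those that rose were Eef1akmt1 (0.38 ± 0.07), Eif5a (0.32 ± 0.08) and Eef1b2 (0.22 ± 0.05). The elongation factor kinase gene Eef2k fell (-0.21 ± 0.06, adjusted p = 0.021). Of 4 proofreading genes, which remove wrongly joined amino acids, 1 rose, Prorsd1 (0.20 ± 0.06, adjusted p = 0.0269), a share near the background. The fall in the elongation list was lost when control array 3 or low P/S array 4 was left out (0 genes), and the rise in the proofreading list when control array 4 or 6, low P/S array 1 or low P/S array 4 was left out (0 genes).

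Most other genes of mitochondrial translation rose. Of 74 tested genes of the mitochondrial ribosome 53 rose (71.6%, median 0.25) and 0 fell, though 1 fell without low P/S array 6. Mrpl51 had 785 to 988 on low P/S (median 896) and 536 to 756 on control (median 626), 0.47 ± 0.08 (adjusted p = 0.000492). Of 20 mitochondrial translation factors 12 rose (60%, median 0.23) and 0 fell. Tufm, which brings charged transfer RNA to the mitochondrial ribosome, had 871 to 937 on low P/S (median 902) and 591 to 765 on control (median 689), 0.41 ± 0.06 (adjusted p = 0.000195). The difference between these lists and the mitochondrial synthetases was not tested.

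Of 30 tested genes of the amino acid response through ATF4, synthetases not counted, 8 rose (26.7%), 2 fell (6.67%) and 20 did not pass, with a median of 0.11. These shares are near those of all genes tested (17.8% and 7.87%) and of genes in the cytosolic signal range (24.2% and 10.1%), so the list as a whole is no result. Asns, which makes asparagine, had 423 to 583 on low P/S (median 493) and 257 to 362 on control (median 305), without overlap (0.72 ± 0.10, adjusted p = 8.77e-05). Atf5, a transcription factor of the response, differed by 0.75 ± 0.07 (adjusted p = 8.13e-06). Atf4 itself had 413 to 529 on low P/S (median 485) and 361 to 446 on control (median 377), 0.30 ± 0.07 (adjusted p = 0.00598). Of the serine synthesis genes, Psat1 rose by 0.20 ± 0.06 (adjusted p = 0.0208), while Phgdh (0.16 ± 0.07, adjusted p = 0.0936) and Psph (0.04 ± 0.05, adjusted p = 0.536) did not pass.

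Several genes of the stress arm of this response did not pass. Ddit3 had a difference of 0.12 ± 0.06 (adjusted p = 0.196), Chac1 0.08 ± 0.07 (adjusted p = 0.42) and Trib3 -0.08 ± 0.07 (adjusted p = 0.403). Slc3a2, the shared heavy chain of several amino acid transporters, fell, with 2281 to 2571 on low P/S and 2802 to 3795 on control (-0.45 ± 0.07, adjusted p = 0.000201). The other gene of the response that fell was Ddit4 (-0.29 ± 0.09, adjusted p = 0.0255). The count of genes of the response that fell was 1 in place of 2 when any of low P/S arrays 1, 4 and 5 or control arrays 4 and 6 was left out.

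Of 14 genes of the eIF2 kinases and the eIF2 cycle, which set the rate at which translation starts, 6 rose (42.9%) and 1 fell. Among all genes tested 17.8% rose and 7.87% fell. The number of these 14 that rose was 5 to 7 with single arrays left out and 4 to 9 in the other alternatives. Eif2ak4, whose kinase senses uncharged transfer RNA, had 121 to 131 on low P/S and 96.1 to 114 on control (0.22 ± 0.05, adjusted p = 0.0041). Eif2s2, a subunit of eIF2, differed by 0.48 ± 0.07 (adjusted p = 0.000269) and Eif2b1, of its exchange factor, by 0.41 ± 0.08 (adjusted p = 0.00148). Eif2ak1, the kinase that senses heme, fell (-0.24 ± 0.06, adjusted p = 0.00647), and Eif2ak3, the kinase of the endoplasmic reticulum, did not pass (-0.15 ± 0.10, adjusted p = 0.294).

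**Figure D5:**
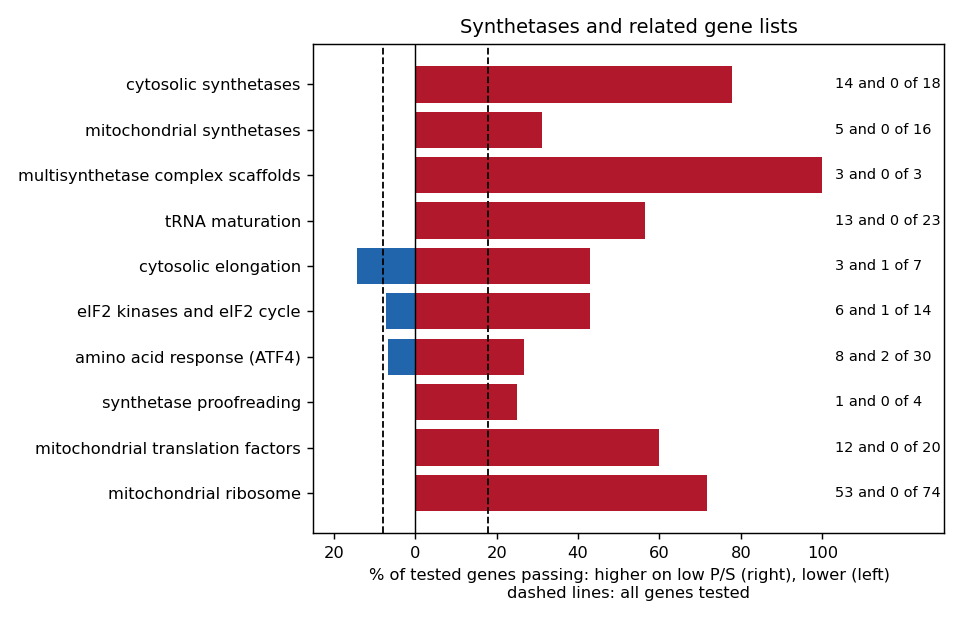
Share of tested genes passing as higher (right, red) or lower (left, blue) on the low P/S diet in the synthetases and in related gene lists, with the numbers higher and lower of those tested at the right edge. Dashed lines mark the shares over all genes tested, 17.8% higher and 7.87% lower.

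Enterocyte markers were among the brightest probe sets, with all 10 between 3626 and 13389. Of these 4 fell, where 7.87% of all genes tested did, 1 rose and 5 did not pass in limma. Of the markers of other cell types, those of proliferating crypt cells and macrophages rose in most cases, where 17.8% of all genes tested did. Of 12 tested markers of proliferating crypt cells 7 rose (58.3%) and 0 fell, led by the replication gene Mcm2 (0.86 ± 0.14, adjusted p = 0.000553). The summed intensity of the 13 measured was 5749 to 7659 on low P/S and 4437 to 6804 on control. Most of this sum came from Olfm4, at 1595 to 2410 on low P/S and 1535 to 2386 on control, and Pcna, at 1536 to 2350 and 1153 to 1944. Neither Olfm4 nor Pcna passed. Control array 6 was lowest in the crypt sum too. All 6 tested macrophage markers rose. The summed intensities of the 7 measured were 1040 to 1379 on low P/S and 844 to 996 on control. The plasma and B cell markers rose in 2 of 5 tested cases, Jchain (0.79 ± 0.09, adjusted p = 3.39e-05) and Mzb1 (0.22 ± 0.08, adjusted p = 0.0491). The sums of the 8 measured were 3496 to 4508 on low P/S and 2644 to 3193 on control. Most of these sums came from Jchain, at 1682 to 2365 on low P/S and 1006 to 1437 on control, and Xbp1, which did not pass. The mean of the tested markers of this list was 0.51 in low P/S array 3 and -0.04 to 0.20 in the other low P/S arrays.

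Goblet cell markers rose in 2 of 7 cases and Paneth cell markers in 1 of 6, and 0 of either fell, which is near the background. T cell markers fell in 4 of 5 cases, where 7.87% of all genes tested fell. Of 8 smooth muscle markers 0 passed in limma, with 0 at an unadjusted p under 0.05. Of 13 measured markers of exocrine pancreas, a tissue rich in synthetases, 8 were too dim to test and 0 of the other 5 passed in limma, with 2 lower at an unadjusted p under 0.05, and with sums of 1259 to 1464 on low P/S and 1281 to 1399 on control. In whole tissue, fewer cells of a type and less RNA per cell cannot be told apart. With single arrays left out the counts of markers that rose lay between 1 and 4 for goblet cells, 0 and 2 for Paneth cells, 0 and 2 for enterocytes and 1 and 3 for plasma and B cells. The part of these cell types in the synthetase differences was not tested.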

How the data were processed

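RNA from the small intestine of 12 mice, 6 per diet, was labelled for Affymetrix arrays from 500 ng without removal of ribosomal RNA, per the labels' protocols. The deposited values are linear intensities, 1 per probe set, and the authors' summarization and normalization steps are not given in the sources used here. Medians per array were 91.9 to 99.5. Of 34760 probe sets, 21640 named 1 gene by the platform annotation, 1321 several and 11799 none. The brightest probe set naming 1 gene, by its mean over 12 arrays, stood for each of 19937 genes (954 had several). The gene identifiers of 21553 of the probe sets naming 1 gene were found in RefSeq.

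Values were taken to log2. Genes with a mean under the 40th percentile (intensity 85.6) were left out, which kept 11962. limma (version 3.58.1, R 4.3.3; lmFit and eBayes) compared the diets, two-sided, with Benjamini-Hochberg adjustment over these genes and a threshold of 0.05. Tables and figures were made with Python 3.11.15. On simulated arrays of the same 11962 genes, 21 of 50 planted differences of 0.25 (log2) were found, and 47 of 50 of 0.5. The simulation gave 179 calls, against 3074 in the real arrays, and drew the noise of each gene separately. Its counts therefore do not measure the share of real differences of these sizes that was found. The number of arrays limits the precision, and the median SE was 0.061.

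The members and lists were chosen with earlier results of these data known, so they are described by counts and medians beside all genes tested, without a test over a list. All 36 members are reported, and of each list up to 4 genes of smallest p with a fixed set of others (Atf4, Ddit3, Trib3, Chac1, Asns, Psat1, Phgdh, Eif2ak3, Eif2ak4 and the scaffolds) could be named. Psph, Ddit4, Olfm4 and Pcna are named besides, to show limits of what their lists give. Alternatives were other normalizations, filters, pseudocounts, probe set rules and priors, array weights, a block for the array number, and arrays left out. Promoters came from RefSeq (GRCm38.p6).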

Additional observations from a re-analysis of the deposited data

Results flagged for a closer look

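In 4 of 68 sets of 6 arrays (34 genes, 2 diets), 1 array stood far below the other 5 of its diet, by a gap of more than 0.625 of the set's whole range on the log2 scale. Chance gives such a gap in about 1 in 20 sets. Control array 6 was the one for Wars, at an intensity of 289 with the next array at 367 (gap 0.674 of the log2 range), for Kars, at 256 with the next at 315 (0.681), and for Lars2, at 156 with the next at 174 (0.765). Control array 5 was the one for Pars2, at 84.9 with the next at 87.3 (0.668). On the linear scale 5 sets passed this limit, these 4 and Yars2 on the low P/S diet, whose array 4 was at 209 with the next at 175 (0.635). Without control array 6, Wars still passed and Lars2 did not (adjusted p = 0.0893).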

How the results depend on the processing

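Across 22 alternatives the number of cytosolic genes higher on the low P/S diet stayed between 12 and 16 and that of mitochondrial genes between 4 and 6, with 0 lower in either. The cytosolic median was 0.21 to 0.34 and the mitochondrial median 0.06 to 0.12. The 0.12 came with the filter at the 60th percentile, which keeps 10 mitochondrial genes, of which 4 were higher. The upper ends of 16 and 6 genes and of 0.34 were reached without control arrays 1 and 2, which raises the differences by construction. The 6 was also reached without control array 1. Without Gars and Kars, which give both forms, 14 of 16 cytosolic genes were higher. Of 742 results for single members 707 kept their sign and side of the threshold, 18 lost the call, 7 gained it and 10 changed sign, all in genes that did not pass. Of the 19 called members, 15 passed in all 22 alternatives. Sars2 passed in the 21 in which it was tested, since the filter at the 60th percentile leaves out 6 mitochondrial genes. The sign of Gars was positive without control arrays 1 and 2 (0.0168), and with single arrays left out its difference ran from -0.068 to 0.0346. Hars2 was -0.0489 with quantile normalization and ran from -0.0171 to 0.0327 with single arrays left out. With quantile normalization Cars2 was -0.0014 and Pars2 0.0189. The number of proofreading genes higher was 2 without control arrays 1 and 2, 0 with quantile normalization and 0 to 1 with single arrays left out. The number of elongation genes lower was 0 with the filter at the 60th percentile and 0 to 1 with single arrays left out. Response genes lower ran from 1 to 3 and mitochondrial ribosome genes lower from 0 to 1 with single arrays left out. Over all genes, quantile normalization gave 1853 higher and 1596 lower, against 2132 and 942. The causes were not tested. Arrays of the 2 diets share numbers, but the correlations of same-numbered arrays ran from -0.109 to 0.418, so the numbers were not taken as pairs. With the array number as a block, 15 cytosolic and 4 mitochondrial genes were higher: Kars gained the call (adjusted p = 0.04) and Lars2 lost it (adjusted p = 0.0617).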

Other observations

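The synthetases fall into 2 structural classes by the fold of their catalytic domain. Of the cytosolic genes with a single class, 7 of 9 of class I (77.8%) and 6 of 8 of class II (75%) rose. Of the mitochondrial genes 3 of 9 of class I (33.3%) and 2 of 7 of class II (28.6%) did. Among all genes tested 17.8% rose, and the mitochondrial shares were nearer to this background. Iars was read by a second probe set as well, which gave a difference of 0.26 beside 0.27 for the one used.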
